A study of Mus musculus with 16 samples.

Results

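The metallothionein genes Mt1, Mt2 and Mt3 were followed in RNA sequencing counts of mouse tibialis anterior, a leg muscle. They are 3 of the 30037 genes in the count table and were chosen by gene name, with the large difference of Mt3 between Dnm2SL/+ and WT muscle under ASO Control already known. All 3 passed the filter on low counts, Mt3 with 12 or more counts in every library. The table also held Mt4, the remaining gene of the cluster, which did not pass the filter and is given by its counts. The 16 libraries came from male C57BL/6N mice aged 7 weeks, all injected with an antisense oligonucleotide (ASO). Dnm2SL/+ mice are heterozygous for a mutant allele of Dnm2, which encodes the membrane-severing GTPase dynamin 2, and are used to model a dominant form of centronuclear myopathy, in which nuclei lie away from the fibre edge. ASO1 is directed at Dnm2, and ASO Control is the control oligonucleotide. The 4 groups were Dnm2SL/+ ASO1 (n = 4), Dnm2SL/+ ASO Control (n = 6), WT ASO1 (n = 2) and WT ASO Control (n = 4), so every WT mouse had received an oligonucleotide too. The dose and the times of injection are not given in the sources used here, and no label says whether mice shared a litter.

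Total counts were 30148163 to 33667052 per library. Levels are CPM, the counts of a gene scaled to a common library total, after TMM scaling, which sets the libraries to a common scale from genes that differ little. Dnm2 was at 26.6 to 35.2 CPM in Dnm2SL/+ ASO1, 35.2 to 65.1 CPM in Dnm2SL/+ ASO Control, 23.0 and 24.99 CPM in WT ASO1 and 45.4 to 57.2 CPM in WT ASO Control, and the lowest Dnm2SL/+ ASO Control library, replicate 6, was at the level of the highest Dnm2SL/+ ASO1 library. Muscle fibre markers (Ckm, Acta1, Myh4, Myh1, Tnnt3 and Mylpf) were present in every group. In WT ASO Control, replicate 1 was unlike the others by its high matrix and macrophage transcripts. The log2FC of Mt1 and Mt2 in pairwise comparisons with WT ASO Control are also given without it. Group means, levels per kilobase and counts of called list genes include it.

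Metallothioneins are short, cysteine-rich proteins that bind zinc and copper through the sulfur atoms of their cysteines. They store zinc, buffer its free level in the cell and take up toxic metals such as cadmium. Mt1 and Mt2 are made in most tissues and are induced by zinc through the transcription factor MTF1, which binds metal response elements in their promoters, and by glucocorticoids. Mt3 is best known from the brain, where it was described as a growth inhibitory factor of neurons, and is little induced by metals. Mt4 is known from stratified epithelia.

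The 4 genes lie side by side on the plus strand of chromosome 8 of GRCm38, within 43.1 kb (GENCODE M21). Mt4 (ENSMUSG00000031757) spans chr8:94137197-94139031, Mt3 (ENSMUSG00000031760) chr8:94152607-94154146, Mt2 (ENSMUSG00000031762) chr8:94172664-94173568 and Mt1 (ENSMUSG00000031765) chr8:94179082-94180327. Each coding sequence is split over 3 exons. The coding sequences of the 3 genes are printed because they show how alike the family is and that its members could still be counted apart. Cysteine codons are in capitals.

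Mt1: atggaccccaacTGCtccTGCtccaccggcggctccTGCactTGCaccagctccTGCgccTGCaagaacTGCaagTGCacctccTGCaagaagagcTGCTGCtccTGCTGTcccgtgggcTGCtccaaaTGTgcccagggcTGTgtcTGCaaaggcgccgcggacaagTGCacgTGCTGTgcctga
Mt2: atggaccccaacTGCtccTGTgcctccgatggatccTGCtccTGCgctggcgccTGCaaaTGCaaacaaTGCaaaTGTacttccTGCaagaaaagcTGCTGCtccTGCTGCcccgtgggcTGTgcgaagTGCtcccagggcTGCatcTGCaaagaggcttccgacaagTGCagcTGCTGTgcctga
Mt3: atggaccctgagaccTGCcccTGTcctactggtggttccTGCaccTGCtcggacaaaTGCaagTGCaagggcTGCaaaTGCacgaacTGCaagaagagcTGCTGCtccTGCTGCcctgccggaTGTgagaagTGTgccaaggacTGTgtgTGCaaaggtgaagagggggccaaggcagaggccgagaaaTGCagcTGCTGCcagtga

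All 3 sequences carry 20 cysteine codons, in 61 codons in Mt1 and in Mt2 and in 68 codons in Mt3. Mt1 and Mt2 were identical at 79.6% of aligned coding bases, Mt2 and Mt3 at 67.6%, and Mt1 and Mt3 at 65.2%. The longest run of bases shared by 2 reference transcripts was 20 bases for Mt1 and Mt2, 27 bases for Mt1 and Mt3 and 20 bases for Mt2 and Mt3. No stretch of 50 bases of the Mt1 or Mt3 transcript was found in another annotated gene. Of the 462 such stretches of Mt2, 210 (45.5%) lie in Gm45774, a gene on the opposite strand whose exons share 432 bases with those of Mt2. The library kit keeps strand, but the strand setting of the counting is not given in the sources used here. Gm45774 had 8 to 33 counts per library and Mt2 703 to 8794.

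The stretches upstream of the start sites are printed to show where letters of the metal response element lie in them. They come from RefSeq promoter windows on GRCm38.p6, plus strand, and end before the annotated transcript. Capitals mark the core of the metal response element, searched as TGCACNC or TGCGCNC on both strands. The Mt1 stretch is chr8:94178839-94179081, the Mt2 stretch chr8:94172368-94172617 and the Mt3 stretch chr8:94152357-94152606.

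Mt1: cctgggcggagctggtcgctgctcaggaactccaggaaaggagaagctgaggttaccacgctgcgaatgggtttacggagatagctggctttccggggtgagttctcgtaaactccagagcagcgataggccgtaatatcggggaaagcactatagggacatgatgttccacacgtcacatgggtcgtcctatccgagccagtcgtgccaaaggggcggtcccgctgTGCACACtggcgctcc
Mt2: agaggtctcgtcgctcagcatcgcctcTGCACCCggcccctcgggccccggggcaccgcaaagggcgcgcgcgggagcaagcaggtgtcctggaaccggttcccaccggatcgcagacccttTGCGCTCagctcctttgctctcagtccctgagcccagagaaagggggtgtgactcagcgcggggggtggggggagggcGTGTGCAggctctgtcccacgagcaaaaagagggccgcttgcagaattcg
Mt3: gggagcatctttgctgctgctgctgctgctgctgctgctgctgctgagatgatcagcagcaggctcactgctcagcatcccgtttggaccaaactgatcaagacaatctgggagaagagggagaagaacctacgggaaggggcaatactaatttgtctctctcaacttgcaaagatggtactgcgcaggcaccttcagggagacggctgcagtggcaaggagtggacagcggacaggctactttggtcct

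In the full windows of 300 bases, from 250 before to 50 after the RefSeq start, the core was found 3 times for Mt1, 4 times for Mt2 and 1 time for Mt3. The printed stretches hold 1 match for Mt1, 3 for Mt2 and 0 for Mt3. The remaining matches of all 3 genes lay after the RefSeq start. Of 32851 windows of the same length, 25.7% held at least 1 match, 1.97% at least 3 and 0.52% at least 4. A match to these letters is a description of the window and not a measured binding site. Its relation to the levels of the genes was not tested.

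Mt3 separated the groups most widely in level. In Dnm2SL/+ ASO1 it was at 1.35, 1.42, 4.84 and 5.70 CPM. In Dnm2SL/+ ASO Control the lowest of the 6 libraries had 9.10 CPM, the median was 16.7 CPM and the highest was 25.1 CPM. In WT ASO1 it was at 0.531 and 0.575 CPM, and in WT ASO Control at 0.384, 0.747, 0.482 and 0.587 CPM. No Dnm2SL/+ library overlapped a WT library, and the 2 Dnm2SL/+ groups did not overlap each other. Mt3 was selected on its ASO Control libraries, so their separation is a description. The share of all genes that separate groups in this way was not counted, here or for Mt1 and Mt2. The Dnm2SL/+ ASO1 libraries fell into a lower and a higher pair, and the WT levels rested on only 12 to 24 counts per library.

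Mt2 had a wide spread in Dnm2SL/+ ASO Control. It was at 39.4, 59.8, 75.4 and 64.9 CPM in Dnm2SL/+ ASO1. Its lowest, median and highest levels in Dnm2SL/+ ASO Control were 69.0, 122 and 249 CPM. WT ASO1 had 82.0 and 72.0 CPM, and WT ASO Control had 57.9, 28.7, 26.5 and 25.8 CPM. The Dnm2SL/+ ASO Control libraries all lay above the WT ASO Control libraries but overlapped both ASO1 groups. Within WT ASO Control, replicate 1 lay far above the rest.

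Mt1 had the narrowest fold range of the 3 over the 16 libraries. In Dnm2SL/+ ASO1 it was at 43.2, 80.1, 78.9 and 70.3 CPM. Its lowest, median and highest levels in Dnm2SL/+ ASO Control were 67.6, 93.5 and 162 CPM. WT ASO1 had 80.7 and 74.2 CPM, and WT ASO Control had 53.4, 41.4, 37.6 and 40.9 CPM. Again all Dnm2SL/+ ASO Control libraries lay above all WT ASO Control libraries, and both ASO1 groups overlapped Dnm2SL/+ ASO Control.

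**Figure D1:**
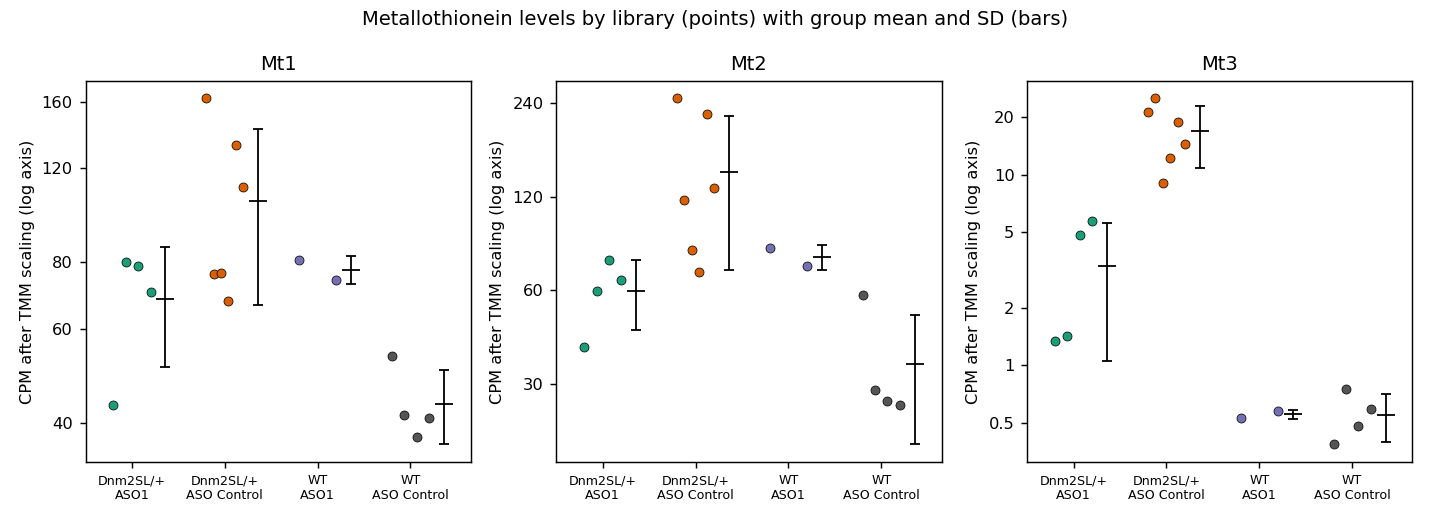
Levels of Mt1, Mt2 and Mt3 in CPM on a log axis, 1 point per library, with the group mean and SD as a bar beside the points. Mt3 stands at 9.10 to 25.1 CPM in the 6 Dnm2SL/+ ASO Control libraries, above all other libraries, while Mt1 and Mt2 in the 2 WT ASO1 libraries lie within the range of Dnm2SL/+ ASO Control.

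Mt4 was close to absent. It had 0, 0, 1 and 1 counts in Dnm2SL/+ ASO1, 3 to 12 counts in each Dnm2SL/+ ASO Control library, and 0 counts in every WT library of both injections. The counts summed over Dnm2SL/+ ASO Control were 43 (exact 95% Poisson interval 31.1 to 57.9, counting error only). The low end of that interval, set against a chosen floor of 3 counts over the WT ASO Control libraries, gives a level 6.0-fold higher in Dnm2SL/+ ASO Control. That value depends on the floor and leaves out the spread between mice, so it is not a lower bound. Mt4 took no part in the tests across genes.

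Between genes, levels were compared per kilobase of the reference transcript. In Dnm2SL/+ ASO1, Mt1 averaged 124 ± 31.3 CPM per kb and Mt2 117 ± 29.5 CPM per kb (SD, n = 4), which lie within their spread, and Mt3 6.21 ± 4.24 CPM per kb. In Dnm2SL/+ ASO Control the order was Mt2, Mt1 and Mt3, at 282 ± 145, 190 ± 68.9 and 31.5 ± 11.2 CPM per kb (SD, n = 6), where Mt2 and Mt1 again lay within their spread. In WT ASO Control, Mt1 averaged 78.9 ± 12.6, Mt2 67.9 ± 30.3 and Mt3 1.03 ± 0.289 CPM per kb (SD, n = 4). Mt3 was thus the lowest of the 3 in every group, including the one where it was highest.

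The comparison of genotypes under ASO Control asks what the mutation changes, and it is the one that Mt3 was selected on, so the values of all 3 members are given with no test. Mt3 averaged 16.9 ± 6.02 CPM in Dnm2SL/+ ASO Control (SD, n = 6) and 0.550 ± 0.155 CPM in WT ASO Control (SD, n = 4). The fitted difference was a log2FC of 4.93 ± 0.49 (SE), or 30.4-fold, number 33 of 15649 genes when ordered from the largest rise. The genes next to it in that order were Cilp with a log2FC of 4.94 and Tmem151a with 4.89. Mt2 averaged 144 ± 74.3 CPM in Dnm2SL/+ ASO Control and 34.7 ± 15.5 CPM in WT ASO Control, with a log2FC of 2.05 ± 0.37 (4.15-fold), and without WT ASO Control replicate 1 the log2FC was 2.42. Mt1 averaged 104 ± 37.8 CPM in Dnm2SL/+ ASO Control and 43.3 ± 6.91 CPM in WT ASO Control, with a log2FC of 1.27 ± 0.24 (2.41-fold), or 1.38 without that replicate. By the size of the fitted difference the 3 members were ordered Mt3, Mt2 and Mt1. The 95% intervals of Mt2 (1.27 to 2.84) and Mt1 (0.75 to 1.78) overlapped. Over all genes tested, 15.7% were called higher and 16.4% lower in this comparison at an adjusted p under 0.05.

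**Figure D2:**
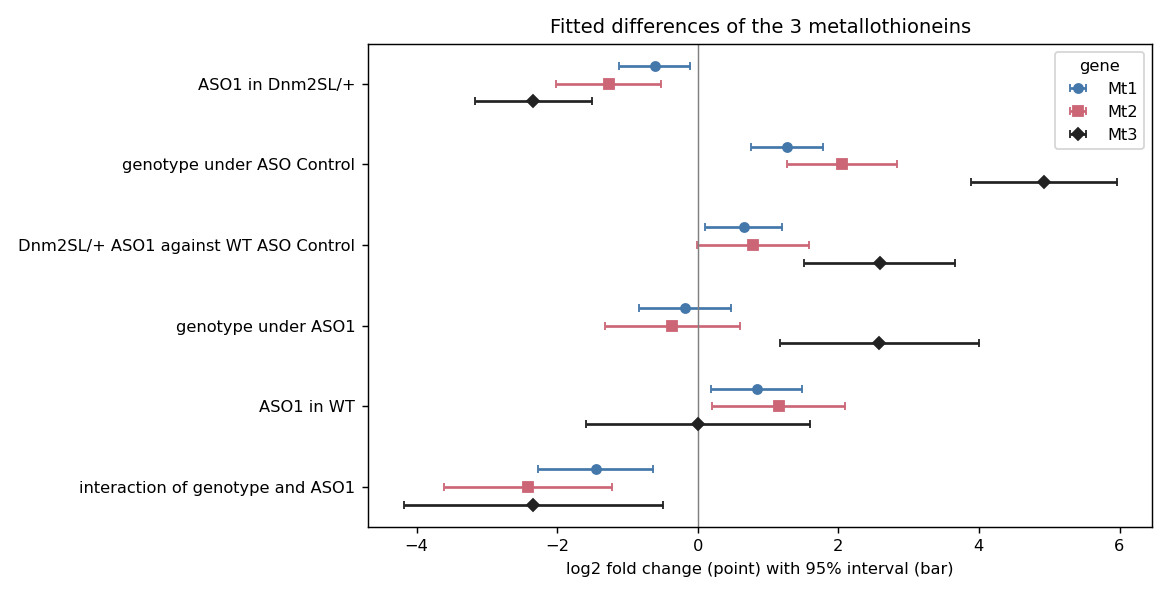
Fitted log2 fold changes of Mt1, Mt2 and Mt3 in the 6 comparisons, with 95% intervals from the edgeR fit of all 16 libraries. The Mt3 point lies at 4.93 for genotype under ASO Control, -2.34 for ASO1 in Dnm2SL/+ and 2.58 for genotype under ASO1, and the Mt1 and Mt2 points lie below 0 for genotype under ASO1, with intervals that include 0.

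ASO1 in Dnm2SL/+ muscle compares the oligonucleotide directed at Dnm2 with ASO Control in the mutant. Whether the differences came from the lower Dnm2 was not tested. Mt2 fell in the mutant with ASO1, Mt1 did not pass the test, and Mt3, selected on the Dnm2SL/+ ASO Control libraries used here, is a description. Mt2 averaged 59.9 ± 15.1 CPM in Dnm2SL/+ ASO1 (SD, n = 4) and 144 ± 74.3 CPM in Dnm2SL/+ ASO Control (SD, n = 6). Its log2FC was -1.27 ± 0.35 (SE) with an adjusted p of 0.0248 in edgeR's quasi-likelihood test. An exact two-sided permutation test of log2 CPM gave p = 0.0190. Over all genes tested, 6.96% were called higher and 8.06% lower. The Mt2 call was lost without Dnm2SL/+ ASO Control replicate 5 (edgeR adjusted p = 0.0528) or without Dnm2SL/+ ASO1 replicate 1, 2 or 4 (edgeR adjusted p = 0.0807, 0.0562 and 0.0517), with a log2FC between -1.41 and -1.04 over the 16 libraries left out in turn. Mt1 averaged 68.1 ± 17.2 CPM in Dnm2SL/+ ASO1 and 104 ± 37.8 CPM in Dnm2SL/+ ASO Control, a log2FC of -0.61 ± 0.24 with an edgeR adjusted p of 0.0929, and the exact permutation test gave p = 0.152. Mt3 averaged 3.33 ± 2.27 CPM in Dnm2SL/+ ASO1 and 16.9 ± 6.02 CPM in Dnm2SL/+ ASO Control, a log2FC of -2.34 ± 0.39.

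The comparison of genotypes under ASO1 sets groups against each other that share no library with the comparison Mt3 was selected on, although the fit takes its spread from all 16 libraries. Mt3 was called higher in the mutant in that fit, and Mt1 and Mt2 were not called. Mt3 averaged 3.33 ± 2.27 CPM in Dnm2SL/+ ASO1 (SD, n = 4) and 0.553 ± 0.0315 CPM in WT ASO1 (SD, n = 2), and all 4 mutant libraries lay above both WT libraries. The log2FC was 2.58 ± 0.67 (SE), or 5.99-fold, with an edgeR adjusted p of 0.0457, where 1.02% of genes were called higher and 2.49% lower. The exact two-sided permutation test gave p = 0.133, the smallest that 4 against 2 libraries allow. Fitted on these 6 libraries only, which share none with the selection of Mt3, the log2FC was 2.59 with an edgeR adjusted p of 0.198, so the call was lost, and 4 genes were called in all. The call in the fit of all libraries lies close to the threshold. It was kept without 5 of the 16 libraries in turn and lost without the other 11, with edgeR adjusted p of 0.0279 to 0.449 and a log2FC of 2.197 to 2.84. The largest values came without WT ASO1 replicate 1 (edgeR adjusted p = 0.449), WT ASO1 replicate 2 (0.126) and Dnm2SL/+ ASO1 replicate 4 (0.103). Without Dnm2SL/+ ASO1 replicate 3, Dnm2SL/+ ASO Control replicates 4, 5 or 6, or any WT ASO Control library, the edgeR adjusted p was 0.0509 to 0.0650. Limma voom with quality weights gave an adjusted p of 0.390 at a log2FC of 2.36. Mt1 had a log2FC of -0.18 (95% interval -0.84 to 0.47, edgeR adjusted p = 0.780) and Mt2 of -0.36 (95% interval -1.32 to 0.60, edgeR adjusted p = 0.696), intervals that leave room for differences of either sign.

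Set against WT ASO Control, the treated mutants kept a higher Mt3 level, again as a description, with 3.33 ± 2.27 CPM in Dnm2SL/+ ASO1 and 0.550 ± 0.155 CPM in WT ASO Control and a log2FC of 2.59 ± 0.51 (6.02-fold). Mt1 had a log2FC of 0.65 ± 0.26 with an edgeR adjusted p of 0.148, and Mt2 of 0.79 ± 0.38 with an edgeR adjusted p of 0.242. Without WT ASO Control replicate 1 these were 0.77 and 1.15 (edgeR adjusted p = 0.1196 and 0.0901). The exact two-sided permutation tests gave p = 0.0571 for each, where 0.0286 is the smallest p that 4 against 4 libraries allow. Over all genes tested, 1.66% were called higher and 2.86% lower.

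ASO1 in WT muscle was compared over 2 against 4 libraries. Mt2 averaged 77.0 ± 7.07 CPM in WT ASO1 (SD, n = 2) and 34.7 ± 15.5 CPM in WT ASO Control (SD, n = 4), and both ASO1 libraries lay above all 4 ASO Control libraries. Mt1 averaged 77.4 ± 4.64 CPM in WT ASO1 and 43.3 ± 6.91 CPM in WT ASO Control, without overlap. The log2FC was 1.15 ± 0.45 for Mt2 (edgeR adjusted p = 0.409) and 0.84 ± 0.30 for Mt1 (edgeR adjusted p = 0.384), so neither passed the test. Without WT ASO Control replicate 1 they were 1.51 and 0.95 (edgeR adjusted p = 0.366 and 0.408). The exact permutation test gave p = 0.133 for each, the smallest that 2 against 4 libraries allow. No gene was called here by edgeR, against 1605 with an unadjusted p under 0.05 and 97 called by DESeq2. Mt3 averaged 0.553 ± 0.0315 CPM in WT ASO1 and 0.550 ± 0.155 CPM in WT ASO Control, a log2FC of 0.0051 ± 0.75.

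The interaction, the ASO1 difference in Dnm2SL/+ minus that in WT, tests whether the oligonucleotide changed the members differently in the 2 genotypes. It equals the genotype difference under ASO1 minus that under ASO Control, the comparison Mt3 was selected on. These log2FC were -0.36 and 2.05 for Mt2, and -0.18 and 1.27 for Mt1. The tests of Mt1 and Mt2 given here are therefore not free of that choice. For Mt2 the interaction was -2.42 ± 0.56 (log2, SE) with an edgeR adjusted p of 0.0348, where 0.882% of genes were called higher and 1.94% lower. Mt2 was lower with ASO1 in the mutant and higher with ASO1 in WT. The call was lost without either WT ASO1 library (edgeR adjusted p = 0.148 without replicate 1 and 0.0609 without replicate 2). It was also lost without Dnm2SL/+ ASO1 replicate 1, 2 or 4, Dnm2SL/+ ASO Control replicate 5, or WT ASO Control replicate 2, 3 or 4, with an edgeR adjusted p of 0.0525 to 0.0739. Over the 16 libraries left out in turn the interaction stayed between -2.78 and -2.197. For Mt1 the interaction was -1.45 ± 0.38 with an edgeR adjusted p of 0.0539, and it passed the threshold without Dnm2SL/+ ASO Control replicate 1 or 4 (edgeR adjusted p = 0.0447 and 0.0448) or WT ASO Control replicate 1 (edgeR adjusted p = 0.0460). For Mt3, as a description, it was -2.34 ± 0.87.

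The make-up of the metallothionein counts within a library does not depend on scaling. There were 0.912, 0.747, 0.955 and 0.922 Mt2 counts per Mt1 count in Dnm2SL/+ ASO1. In Dnm2SL/+ ASO Control this ratio was 1.02 to 1.67. It was 1.02 and 0.971 in WT ASO1, and 1.08, 0.692, 0.704 and 0.630 in WT ASO Control. Mt2 outnumbered Mt1 in all 6 Dnm2SL/+ ASO Control libraries and, within WT ASO Control, in replicate 1 alone. Mt3 made up 1.61%, 1.00%, 3.04% and 4.05% of the counts of the 4 genes in Dnm2SL/+ ASO1. Its share was 4.94% to 11.5% in Dnm2SL/+ ASO Control. It was 0.325% and 0.392% in WT ASO1, and 0.344%, 1.05%, 0.746% and 0.872% in WT ASO Control. The mutants' share lay above that of WT except in Dnm2SL/+ ASO1 replicate 2, whose 1.00% (Wilson 95% interval 0.746% to 1.35%) lay within the WT ASO Control range. The 4 genes together took 0.00809% to 0.0158% of all counts in Dnm2SL/+ ASO1, 0.0167% to 0.0463% in Dnm2SL/+ ASO Control, 0.0135% to 0.0144% in WT ASO1 and 0.00589% to 0.0107% in WT ASO Control. Intervals cover counting error only.

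**Figure D3:**
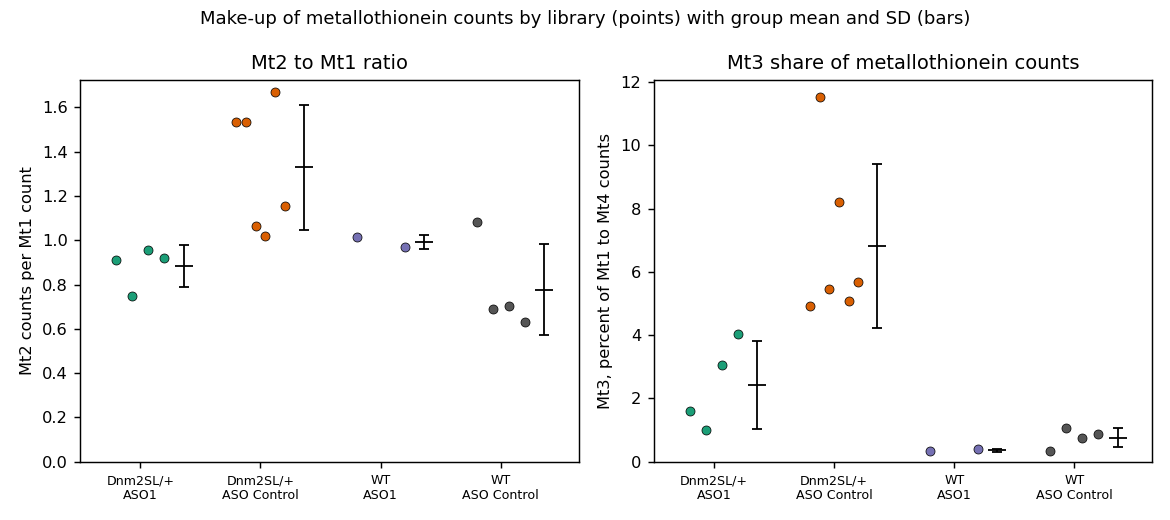
Left, Mt2 counts per Mt1 count; right, Mt3 as a percent of the counts of Mt1 to Mt4; 1 point per library, with group mean and SD as a bar beside the points. The ratio is above 1 in all 6 Dnm2SL/+ ASO Control libraries, and the Mt3 share of 4.94% to 11.5% there exceeds the 0.325% to 1.05% of the WT libraries.

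Mt1 and Mt2 moved together from mouse to mouse, also within a group. In the 6 Dnm2SL/+ ASO Control libraries Pearson's r of log2 CPM was 0.948 (exact permutation p = 0.00556, 0.0167 adjusted over 3 pairs) and Spearman's rho 0.943 (exact permutation p = 0.0167, adjusted 0.05). Without the 2 libraries farthest from the median of Mt1, r was 0.779 over 4 libraries. Mt3 did not show such a relation at this number of mice. For Mt1 and Mt3, r was 0.465 (exact permutation p = 0.333, adjusted 0.333) and rho 0.314 (exact permutation p = 0.564, adjusted 0.564), and r was 0.0817 without the 2 farthest libraries. For Mt2 and Mt3, r was 0.681 (exact permutation p = 0.139, adjusted 0.208) and rho 0.6 (exact permutation p = 0.242, adjusted 0.363), and r was 0.641 without the 2 farthest.

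**Figure D4:**
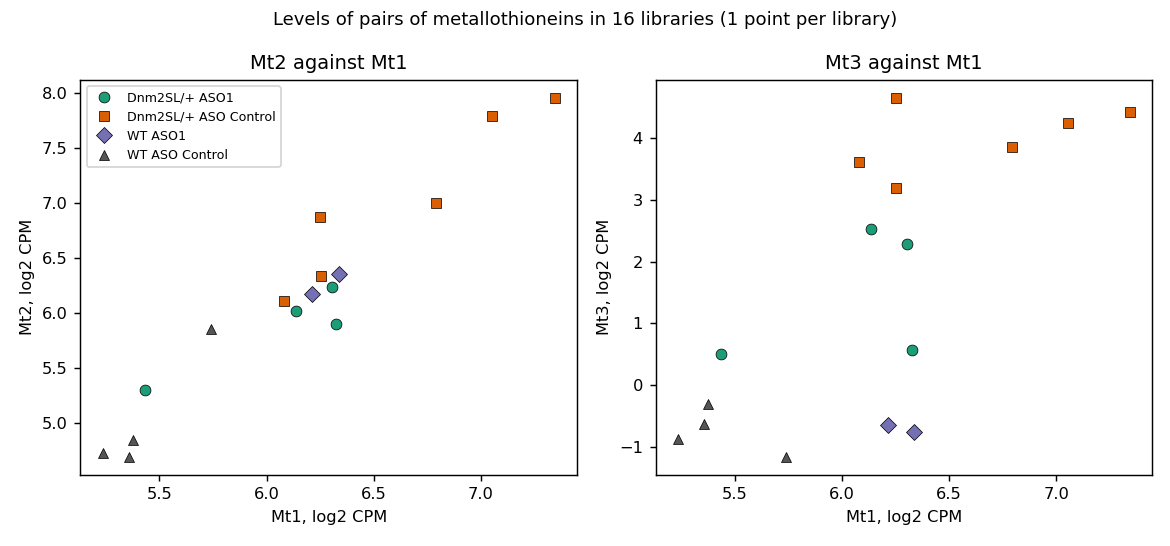
Left, Mt2 against Mt1 and right, Mt3 against Mt1, both axes in log2 CPM with a prior count of 2, 1 point per library and a marker per group. Mt2 follows Mt1 through all 16 libraries, while the 2 WT ASO1 libraries reach Mt1 levels of 74.2 and 80.7 CPM with Mt3 at 0.531 and 0.575 CPM.

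Likeness to other genes was measured as Pearson's r of log2 CPM over the 16 libraries and is a description, since groups and libraries are shared by all genes. For Mt1 the most alike gene of those tested was Mt2 and for Mt2 it was Mt1, with r = 0.965, and r = 0.912 when group means were removed. After that, Ttc39c, 2210016F16Rik and Tmem237 were among the 5 genes most like both, with Gpn2 for Mt1 and Ltbp3, a binder of latent TGF-beta, for Mt2. Ttc39c reached r = 0.945 with Mt2. With group means removed, Shroom2, an actin-binding protein, and the kinase Map3k6 were among the 5 for both, with Wasf2 and St6galnac2 for Mt1 and Ccsap and Adck5 for Mt2. Neither list held Mt3, whose r was 0.714 with Mt1 and 0.766 with Mt2.

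The pattern of Mt3 was most like Serpinb1a, an inhibitor of serine proteases (r = 0.970), Bok, a member of the Bcl-2 family (r = 0.970), Tspo, a protein of the outer mitochondrial membrane (r = 0.966), Rab13, a small GTPase (r = 0.964), and Plp2, a membrane proteolipid (r = 0.962). Serpinb1a averaged 8.17 ± 2.39 CPM in Dnm2SL/+ ASO1, 43.8 ± 11.4 CPM in Dnm2SL/+ ASO Control, 2.39 ± 0.632 CPM in WT ASO1 and 2.14 ± 0.424 CPM in WT ASO Control. Tspo averaged 19.4 ± 3.41 CPM in Dnm2SL/+ ASO1, 53.5 ± 7.57 CPM in Dnm2SL/+ ASO Control, 12.6 ± 0.285 CPM in WT ASO1 and 10.6 ± 1.48 CPM in WT ASO Control (SD, n = 4, 6, 2 and 4). Both were picked by their likeness to Mt3 over these same libraries, so a similar order of groups follows from the choice and is not a further result. With group means removed the 5 most alike were Ggcx, the vitamin K dependent carboxylase (r = 0.846), Tigit, Orc5, Tnfrsf25 and Trim46, and none of the 5 appeared in the first list.

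The genes beside the cluster did not share the size of its differences. Values are given for 6 tested protein-coding neighbours. Between genotypes under ASO Control, Nup93, a nuclear pore protein, rose with a log2FC of 0.45 (edgeR adjusted p = 0.000164), Herpud1, a protein of endoplasmic reticulum stress, fell by 0.61 (edgeR adjusted p = 0.00357), and Ogfod1 fell by 0.22 (edgeR adjusted p = 0.00729). Nudt21 had a log2FC of -0.17, Bbs2 of 0.27 and Nlrc5 of 0.74, and none of these passed the test. The Nlrc5 value rests on Dnm2SL/+ ASO Control replicate 1 at 11.01 CPM, the other 5 libraries of the group being at 2.02 to 2.24 CPM and WT ASO Control at 2.03 to 2.56 CPM. With ASO1 in the mutant Nup93 fell by 0.45 (edgeR adjusted p = 0.000835), and it was the only one of the 6 called there. Slc12a3 was not tested. The opposite-strand Gm45774 averaged 0.441 ± 0.184 CPM in Dnm2SL/+ ASO1, 0.755 ± 0.110 CPM in Dnm2SL/+ ASO Control, 1.14 ± 0.0374 CPM in WT ASO1 and 0.437 ± 0.113 CPM in WT ASO Control. WT ASO1 was its highest group, where Mt2 was highest in Dnm2SL/+ ASO Control. Its log2FC had the sign of that of Mt2 in every comparison. Genotype under ASO Control gave 0.78, genotype under ASO1 -1.36 and the interaction -2.14 (edgeR adjusted p = 0.0296, 0.0320 and 0.0134). With ASO1 it was -0.77 in the mutant and 1.37 in WT (edgeR adjusted p = 0.0536 and 0.233). For Dnm2SL/+ ASO1 against WT ASO Control it was 0.0044. Whether reads of either gene were counted for the other was not tested.

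**Figure D5:**
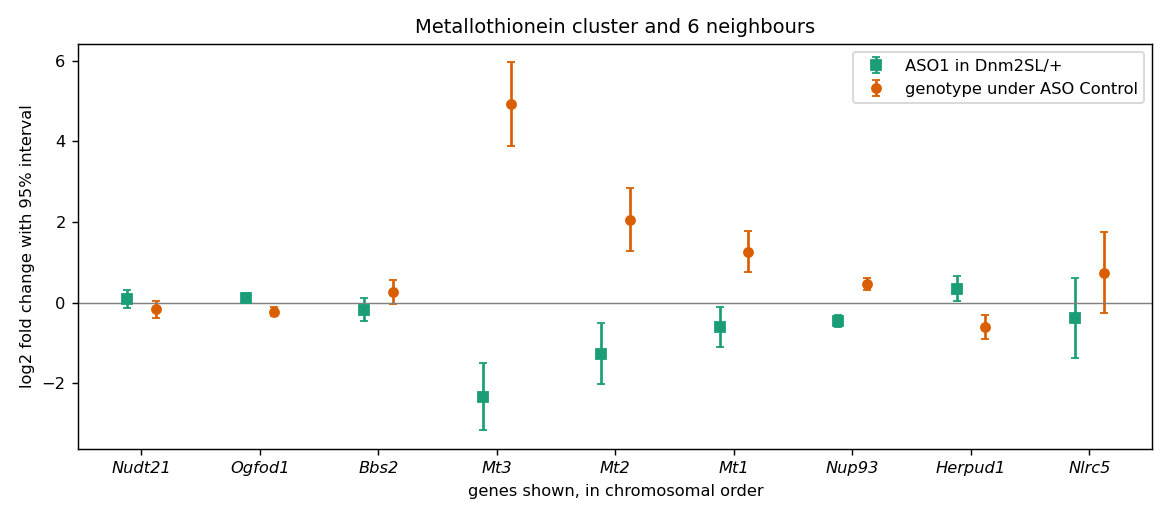
Fitted log2 fold changes with 95% intervals for the tested genes of the cluster and 6 protein-coding neighbours, in chromosomal order, for ASO1 in Dnm2SL/+ (squares) and genotype under ASO Control (circles). Mt3, Mt2 and Mt1 lie at 4.93, 2.05 and 1.27 for genotype, while the 6 neighbours lie between -0.61 and 0.74, the upper value being that of Nlrc5, which rests on 1 library.

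Genes that move zinc across membranes were counted beside the 15.7% of all genes called higher and 16.4% called lower between genotypes under ASO Control. Of 7 tested exporters of the SLC30 family, 0 rose and 2 fell (28.6%) in Dnm2SL/+ ASO Control against WT ASO Control (median log2FC -0.01, against 0.0022 over all genes): Slc30a9 with a log2FC of -0.30 (edgeR adjusted p = 0.000129) and Slc30a2 with -1.72 (edgeR adjusted p = 0.00214). Slc30a9 rose by 0.15 with ASO1 in the mutant (edgeR adjusted p = 0.0394). Of 12 tested importers of the SLC39 family, 2 rose (16.7%) and 0 fell between genotypes (median 0.11), namely Slc39a6 with 0.77 (edgeR adjusted p = 0.00605) and Slc39a1 with 0.21 (edgeR adjusted p = 0.0470). With ASO1 in the mutant 3 importers fell (25.0%, against 8.06% of all genes) and 0 rose, led by Slc39a10 with -0.56 (edgeR adjusted p = 0.00482) and Slc39a6 with -0.79 (edgeR adjusted p = 0.0116). Neither family had a called gene between genotypes under ASO1 or in the interaction, where 3.51% and 2.82% of all genes were called.

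Among 15 tested genes of the metal sensor and copper handling list, 2 rose and 3 fell between genotypes under ASO Control (33.3% called, against 32.1% of all genes; median -0.07). Prnp, the copper-binding prion protein, rose by 0.86 and fell by 0.54 with ASO1 in the mutant (edgeR adjusted p = 4.8e-06 and 0.000908). Mtf1, the zinc sensor that induces Mt1 and Mt2, fell by 0.33 between genotypes (edgeR adjusted p = 0.00120). Slc31a1, the copper importer, rose by 0.28 with ASO1 in the mutant (edgeR adjusted p = 0.00603), where 1 gene of the list rose and 1 fell (13.3% called, against 15% of all genes). Of 14 tested iron genes, 0 rose and 4 fell between genotypes under ASO Control (28.6% called, against 32.1% of all genes; median -0.12). Slc40a1, the iron exporter ferroportin, fell by 1.37 (edgeR adjusted p = 3.2e-06) and Pcbp2, an iron chaperone, by 0.26 (edgeR adjusted p = 0.000865). With ASO1 in the mutant Slc40a1 alone was called, 0.64 higher (edgeR adjusted p = 0.00440). Between genotypes under ASO1, Fth1, the ferritin heavy chain, fell by 0.40 (edgeR adjusted p = 0.0105) and Slc40a1 by 1.00 (edgeR adjusted p = 0.0143). These 2 were 14.3% of the iron list, against 3.51% of all genes.

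Of 19 tested Nrf2 and glutathione genes, 4 rose (21.1%, against 15.7% of all genes) and 6 fell (31.6%, against 16.4%) between genotypes under ASO Control (median -0.09). Gpx1, a glutathione peroxidase, rose by 1.11 and Gss, glutathione synthetase, by 0.81 (edgeR adjusted p = 2.3e-06 and 1.3e-05). With ASO1 in the mutant 4 fell (21.1%, against 8.06% of all genes) and 0 rose, led by Gss with -0.66 and Gpx1 with -0.44 (edgeR adjusted p = 0.000435 and 0.00718). In the interaction Gss at -0.83 and Txn1, thioredoxin, at -0.69 were called lower, with Gpx1 as the third of 19 (15.8%, against 1.94% of all genes; edgeR adjusted p = 0.0110, 0.0220 and 0.0474). Between genotypes under ASO1, Gstm1 had -0.37 and Keap1 -0.35 (edgeR adjusted p = 0.0355 and 0.0434). These 2 were 10.5% of the list, against 3.51% of all genes. Of 14 tested glucocorticoid response genes, 0 rose and 7 fell (50%, against 16.4% of all genes) between genotypes under ASO Control (median -0.53). Hsd11b1, the enzyme that regenerates active glucocorticoid, had -1.29 and Klf9 -0.42 (edgeR adjusted p = 0.00234 and 0.00892). Errfi1 was the only one called with ASO1 in the mutant, at -1.02 (edgeR adjusted p = 0.0298), and Tsc22d3 at -0.54 and Cebpd at -1.15 were called between genotypes under ASO1 (edgeR adjusted p = 0.0415 and 0.0487). Of 12 tested interleukin 6 and STAT3 response genes, 1 rose and 2 fell between genotypes under ASO Control (25.0% called, against 32.1% of all genes; median -0.01). Stat3 had 0.32 there and -0.32 with ASO1 in the mutant (edgeR adjusted p = 0.00677 and 0.0152), Lifr, a cytokine receptor, had -0.80 (edgeR adjusted p = 0.000150), and Socs3, an inhibitor of cytokine signalling, had -1.29 between genotypes under ASO1 and -1.65 in the interaction (edgeR adjusted p = 0.0327 and 0.0358).

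Transcripts of other cell types moved with some of these groups, and in bulk muscle fewer cells of a type and less RNA per cell cannot be told apart. The 8 macrophage markers summed to 43.1 to 96.2 CPM in Dnm2SL/+ ASO1, 62.1 to 127 CPM in Dnm2SL/+ ASO Control, 23.6 to 61.7 CPM in WT ASO1 and 36.4 to 80.6 CPM in WT ASO Control, and 3 of the 8 rose between genotypes under ASO Control (37.5%, against 15.7% of all genes). The 7 fibro-adipogenic progenitor and fibroblast markers summed to 762 to 1827 CPM in Dnm2SL/+ ASO1, 1717 to 2285 CPM in Dnm2SL/+ ASO Control, 662 to 894 CPM in WT ASO1 and 734 to 1892 CPM in WT ASO Control, and 4 of the 7 rose (57.1%, against 15.7%). Within Dnm2SL/+ ASO1 the 2 libraries with more Mt3, replicates 3 and 4, had 1601 and 1827 CPM of these fibroblast markers and 96.2 and 89.9 CPM of the macrophage markers, against 1056 and 762 CPM and 44.5 and 43.1 CPM in replicates 1 and 2. In Dnm2SL/+ ASO Control, replicates 1 to 6 had Mt3 at 21.4, 25.1, 9.10, 12.2, 19.0 and 14.4 CPM. Their fibroblast markers summed, in the same order, to 2285, 2082, 1858, 1845, 1717 and 2158 CPM. Their macrophage markers summed to 127, 92.6, 67.4, 67.5, 62.1 and 112 CPM. WT ASO Control replicate 1 had 1892 CPM of fibroblast and 80.6 CPM of macrophage markers, and the highest Mt1 and Mt2 of its group. Its Mt3 level of 0.384 CPM rests on 12 counts, against 14 to 24 in the rest of the group. The part of these cells in the differences of Mt1, Mt2 and Mt3 was not tested.

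Of the 8 astrocyte and neuron markers, 2 were tested, and both fell between genotypes under ASO Control. Their sum was 83.3 to 97.3 CPM in Dnm2SL/+ ASO1, 52.5 to 61.7 CPM in Dnm2SL/+ ASO Control, 79.3 to 81.4 CPM in WT ASO1 and 61.9 to 88.7 CPM in WT ASO Control, of which Aqp4, a water channel that muscle fibres also make, gave 81.7% to 89.2% per library and Aldh1l1, a folate enzyme, 9.90% to 17.5%. Gfap, Slc1a2, Snap25, Syt1 and Nefl were each under 0.3 CPM in every library. The 7 Schwann cell markers summed to 61.3 to 205 CPM in Dnm2SL/+ ASO1, 81.5 to 240 CPM in Dnm2SL/+ ASO Control, 46.1 to 100.4 CPM in WT ASO1 and 53.8 to 145 CPM in WT ASO Control, and none was called between genotypes under ASO Control. In that comparison 32.1% of all genes were called. Of the epidermal markers Krt5, Krt14 and Lor were each under 0.3 CPM in every library, and the 1 epidermal marker tested was not called. Of the other lists, 1 of 6 muscle fibre markers rose (16.7%, against 15.7% of all genes) and 3 fell (50%, against 16.4%) between genotypes under ASO Control, 3 of 5 satellite cell markers fell (60%, against 16.4%), and no endothelial, adipocyte, or erythroid and neutrophil marker was called. With ASO1 in the mutant 3 of 6 endothelial markers rose (50%, against 6.96% of all genes).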

How the data were processed

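TRI Reagent extraction was followed by a TruSeq Stranded mRNA library. The authors deposited raw counts per gene on mm10 (GRCm38), and their processing notes name HTSeq 0.6.1p1, STAR 2.5.3a, Bowtie2 2.2.8 and cutadapt 1.10. The annotation release, the strand setting and the treatment of reads with several positions are not given in the sources used here. WT ASO1 had 2 libraries although the design text gives 3 as the fewest, and the submitters corrected 1 label after deposition (WT ASO Control replicate 4). All 30037 genes matched a symbol in GENCODE M21. No pair of libraries within a group was the same library (chi-square per degree of freedom 10.7 to 50.8 over 28 pairs).

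Genes were kept by filterByExpr by group (15649, 52.1%), scaled by TMM and fitted in edgeR 4.0.16 (R 4.3.3; quasi-likelihood test) on all 16 libraries, with 4 group means, 12 residual degrees of freedom and Benjamini-Hochberg adjustment over all genes tested, called at 0.05. The SE was derived from the log2FC and its F statistic. Log2 CPM used a prior count of 2. Where no label names litters or cages, p-values measure only the spread between these samples. The script was tested on simulated data. Exact permutation tests used scipy 1.17.1.

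The members, gene lists and tests were chosen with earlier results of these data known. Genes named were the metallothioneins, Dnm2, 4 protein-coding neighbours on each side (1 is not reported here), from each list the 2 called genes with the smallest p in each comparison described, and the 5 most alike genes per member and measure. The genes next to Mt3 in order of log2FC, Gm45774, and markers named were added after their values were seen, as was Gpx1 in the interaction. The marker lists were muscle fibre, macrophage, fibro-adipogenic progenitor and fibroblast, endothelial, Schwann cell, astrocyte and neuron, adipocyte, satellite cell, epidermis, and erythroid and neutrophil. Alternatives were RLE, upper-quartile and total-count scaling, no filter, DESeq2 1.42.0, voom with quality weights (limma 3.58.1), only the groups compared, a replicate block and each library left out.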

Additional observations from a re-analysis of the deposited data

Results flagged for a closer look

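Mt2 in WT ASO Control replicate 1 was at 57.9 CPM, far from the 25.8 to 28.7 CPM of the other three libraries of its group. The Mt2 to Mt1 ratio of the same library, 1.08, was also far from the others of its group, at 0.630 to 0.704. These were 2 of 18 groups of values examined in this way, of which chance marks about 1 in 20, and the 2 share the Mt2 counts. The library also had the highest fibroblast and macrophage marker sums of its group, whose part in this was not tested.

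In the fit of all 16 libraries the ASO1 difference of Mt2 differed between genotypes, with an interaction of -2.42 on the log2 scale (edgeR adjusted p = 0.0348). The call was lost with voom with quality weights (adjusted p = 0.0515) and with the replicate block in edgeR (adjusted p = 0.153). It was also lost with some single libraries left out, as given above, and WT ASO1 had only 2 libraries. The interaction contains the genotype difference under ASO Control, the comparison Mt3 was selected on. Mt2 was at 39.4 to 75.4 CPM in Dnm2SL/+ ASO1 and 69.0 to 249 CPM in Dnm2SL/+ ASO Control. It was at 72.0 and 82.0 CPM in WT ASO1 and 25.8 to 57.9 CPM in WT ASO Control.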

How the results depend on the processing

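No log2FC of a member changed sign among those tested or called, in any alternative run. Of 429 alternative values of the members, 390 kept their side of the threshold or, untested, moved by less than the spread between replicates, 31 lost the call and 8 gained it. For Mt3 between genotypes under ASO1 the log2FC was 2.61 with upper-quartile scaling, 2.36 with voom, 2.59 with only the groups compared and 2.48 with the replicate block (adjusted p = 0.0507, 0.390, 0.198 and 0.162), and 2.197 to 2.84 with libraries left out. For Mt1 with ASO1 in Dnm2SL/+ it was -0.73 with total-count scaling and -0.61 with DESeq2 (adjusted p = 0.0370 and 0.0466). The Mt1 interaction was -1.52 with total-count scaling, -1.46 without a filter and -1.46 with DESeq2 (adjusted p = 0.0332, 0.0459 and 0.00670), and -1.57 to -1.29 with libraries left out. Mt2 with ASO1 in Dnm2SL/+ was -1.41 to -1.04 with libraries left out, and its interaction was -2.27 with voom (adjusted p = 0.0515) and -2.78 to -2.197 with libraries left out. The cause was not tested.

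The replicate numbers share only a number: over 18 same-numbered pairs the correlation of deviations was -0.157 to 0.247 and was over 0.1 in 3. With the replicate block Mt2 with ASO1 in Dnm2SL/+ was -0.89 and its interaction -1.88 (adjusted p = 0.132 and 0.153), and the counts of called genes were 446 for Dnm2SL/+ ASO1 against WT ASO Control, 123 for genotype under ASO1 and 115 for the interaction.

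Counts of called genes moved more. For Dnm2SL/+ ASO1 against WT ASO Control (707) they were 1281 with DESeq2, 215 with only the groups compared and 189 to 975 with libraries left out. For genotype under ASO1 (549) they were 302 without a filter, 1169 with DESeq2, 244 with voom, 4 with only the groups compared and 0 to 625 with libraries left out. For the interaction (442) they were 777 with total-count scaling, 274 without a filter, 1072 with DESeq2 and 30 to 706 with libraries left out. For ASO1 in WT (0, with 1605 at an unadjusted p under 0.05 in edgeR) they were 97 with DESeq2 and 0 to 9 with libraries left out. The cause was not tested. The 12 to 24 counts of Mt3 per WT library limit how well its fold changes are known.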
